A study of Mus musculus with 26 samples.

Results

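Spleen IgM clonotypes with V segment mutation of 2% or more were compared with spleen IgM clonotypes without a V mismatch, within each of 4 spleens. A clonotype was a V gene, a J gene and a junction nucleotide sequence, counted once per spleen with its 2 technical libraries added together. Its mutation was the mean share of aligned V nucleotides that mismatched the germline V gene, weighted by copies, the counts deposited per sequence. Of 753054 spleen IgM clonotypes, 112741 had 2 or more copies and were kept. Of these, 4566 were mutated, 59303 were unmutated at exactly 0, and 48872 lay above 0 and under 2%. The series held 1287887 clonotypes over skin, spleen and lymph node and all isotypes. All mice were labelled WT with *S. epidermidis* association, the exposure of the skin to a commensal *Staphylococcus*, so both IgM classes came from associated animals. Library titles gave the tissue, since the fields meant for it name ear skin throughout. The cells were labelled B cells, but only heavy-chain transcripts were measured, so no marker of another cell type could be checked, nor whether the RNA came from naive B cells, memory B cells or plasma cells. In bulk RNA, more cells of a clone and more RNA per cell cannot be told apart.

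IgM is the first antibody class a B cell makes, and in a naive B cell its V segment carries the germline sequence. In germinal centres the enzyme AID deaminates cytosines in V segments, preferentially within short hotspot motifs, and error-prone repair spreads changes to neighbouring bases, a process called somatic hypermutation. AID also starts class switching, which replaces the IgM constant region by that of IgG, IgA or IgE, and some mutated cells keep IgM as memory B cells or plasma cells.

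Replicates 1 to 4 gave 453, 2617, 656 and 840 mutated clonotypes and 6025, 16545, 17513 and 19220 unmutated ones. Mutated clonotypes were 4.48%, 7.10%, 2.11% and 2.42% of the kept IgM clonotypes. Spleen libraries held 31766 to 378138 IgM copies each. Spleen 1 stood apart: 36.6% of its IgM clonotypes were single-copy, against 82.8% to 88.7% in the other spleens, and 1.39% were found in both technical libraries, against 3.79% to 6.40%. Values are therefore given per spleen, and the range without each spleen is given in the closing paragraphs. Both classes were chosen by their measured mutation and copies, so these 2 measures are described without a test. Mutated clonotypes had median mutation of 3.47%, 3.24%, 2.93% and 2.83% and reached 18.1% in spleen 2. From 2% to under 2.5% there were 102, 695, 229 and 301 clonotypes, and from 1.5% to under 2% there were 34, 602, 264 and 281. Mean copies were 5.29, 26.7, 14.8 and 18.1 per mutated clonotype, against 5.62, 8.66, 2.70 and 2.63 per unmutated clonotype. A single mismatching copy takes a clonotype out of the unmutated class, so that class favours few copies, and 72.7% to 82.8% of unmutated clonotypes in spleens 2 to 4 had exactly 2. Mutated clonotypes held 4.02%, 15.1%, 7.95% and 9.62% of the copies of all kept IgM clonotypes.

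The V letters available ran from the start of CDR2 through framework 3 to the junction. The sequences of a few clonotypes show 2 kinds of mismatch pattern found in the mutated class, which did not cover all of it. The germline letters used here were the commonest letters among sequences of that V gene with no mismatch. IGHV1-75 lies on chromosome 12 from 115833950 to 115834243 (GRCm38), and it was the V gene of the 2 largest mutated clonotypes of spleen 2. Below, the germline letters are followed by those of the 3 largest of a group of related clonotypes, which share IGHJ2 and a CDR3 of 15 amino acids. Capitals mark letters that differ from the germline.
IGHV1-75 germline: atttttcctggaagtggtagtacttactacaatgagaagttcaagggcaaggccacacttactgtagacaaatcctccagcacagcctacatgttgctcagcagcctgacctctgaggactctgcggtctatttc
relative 1, 7042 copies: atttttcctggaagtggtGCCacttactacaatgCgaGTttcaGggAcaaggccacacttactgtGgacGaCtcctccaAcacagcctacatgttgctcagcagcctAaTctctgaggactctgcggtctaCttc
relative 2, 5240 copies: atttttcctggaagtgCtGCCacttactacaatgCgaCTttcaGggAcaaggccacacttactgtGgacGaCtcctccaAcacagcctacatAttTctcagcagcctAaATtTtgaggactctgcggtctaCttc
relative 3, 4641 copies: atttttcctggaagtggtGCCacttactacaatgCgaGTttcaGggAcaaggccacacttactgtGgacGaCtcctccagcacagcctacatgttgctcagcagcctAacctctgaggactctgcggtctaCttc
The 3 relatives carried 15, 20 and 13 mismatches before the junction, of which 12 were the same letter at the same position in all 3. Their changes ran from CDR2 to the end of framework 3, with a cluster at the end of CDR2 and the start of framework 3.

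The second kind is shown by a clonotype of 152 IgM copies in spleen 2. Its letters matched IGHV6-6 (chromosome 12, 114434788 to 114435087) up to the last part of framework 3, and there matched IGHV6-3 (114391712 to 114392010). It stands here because IGHV6-6 with IGHV6-3 was the commonest such pair. Capitals mark letters that differ from IGHV6-6.
IGHV6-6 germline: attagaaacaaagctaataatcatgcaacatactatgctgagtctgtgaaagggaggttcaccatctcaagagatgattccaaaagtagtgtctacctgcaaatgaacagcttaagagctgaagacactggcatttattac
IGHV6-3 germline: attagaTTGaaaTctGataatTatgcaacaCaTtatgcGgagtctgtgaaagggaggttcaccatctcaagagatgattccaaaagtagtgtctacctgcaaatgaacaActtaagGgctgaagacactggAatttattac
joined clonotype: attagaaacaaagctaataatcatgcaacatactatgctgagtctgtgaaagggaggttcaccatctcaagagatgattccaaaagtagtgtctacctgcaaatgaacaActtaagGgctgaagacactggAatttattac
The germline letters of the pair differed at 12 positions. The clonotype carried the IGHV6-3 letter at the last 3 of them, its only mismatches to IGHV6-6, and the IGHV6-6 letter at the other 9. Its junction, tgcacaggagagtgtaactactgg with IGHJ2, was also present in spleen 2 under IGHV6-3 with 15304 copies of all isotypes together. Both technical libraries held the joined form.

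Each mutated clonotype was therefore compared with every single join of its own V gene and another V gene of the same length. The class was divided by what remained: 2004 clonotypes kept 3 or more mismatches after the best join, 1275 had at least 3 mismatches of which a join left at most 1 (join matches), and 279 were left with 2. A further 950 had fewer than 3 mismatches before the junction and 58 had no germline letters to compare. These 950 carried 878 mismatches before the junction in all, counted in the most copied sequence of each, or the first by alphabet where copies were equal. V letters inside the junction also counted in the mutation, but the join search did not use them. Join matches were 51.7%, 28.5%, 18.9% and 20.5% of the mutated clonotypes of spleens 1 to 4, and those with 3 or more left were 32.9%, 44.1%, 46.6% and 47.1%. In 1195 of the 1275 join matches the assigned V gene gave the letters nearer CDR2 and the second V gene those nearer the junction. Of the 818 such clonotypes with no mismatch left, 670 had the same J gene and junction under that second V gene in the same spleen, in any isotype (57.6%, 90.5%, 81.5% and 82.0% in spleens 1 to 4). The second form held more copies than the joined one in 72.0% of the 818, counting all isotypes of both. Where the assigned V gene gave the letters nearer the junction, 0 of 51 clonotypes without a mismatch left had their junction under the first V gene. IGHV6-6 with IGHV6-3 gave 85 join matches, IGHV9-3 with IGHV9-4 gave 47 and IGHV7-1 with IGHV7-3 gave 34. Where these joins arose, in cells or during library preparation, was not tested.

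The same search was run on the switched isotypes of the same spleens, among clonotypes of 2% or more mutation with at least 3 mismatches before the junction. Join matches were 56.4%, 36.2%, 26.6% and 27.8% of such IgM clonotypes, against 25.3%, 25.7%, 13.1% and 16.7% of IgG2 clonotypes and 4.79%, 10.7%, 8.27% and 7.78% of IgA clonotypes. IgM was above IgG2 and IgA in each spleen, and the IgM and IgA ranges did not overlap. At the same number of mismatches, 3 to 5, the shares averaged 40.1% ± 15.7 in IgM, 22.1% ± 7.15 in IgG2 and 13.1% ± 4.87 in IgA (SD, n = 4 each). The plot of join matches by isotype shows each spleen.

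**Figure D1:**
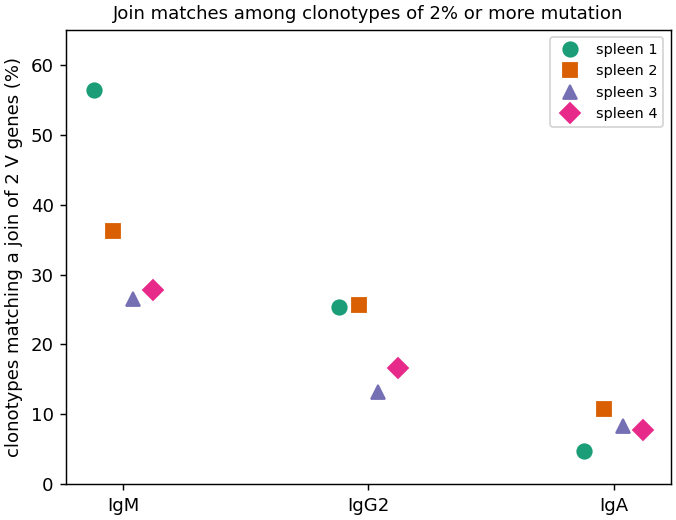
Share of clonotypes of 2% or more mutation, with at least 3 mismatches before the junction, whose V letters were left with at most 1 mismatch by a single join of 2 V genes (y axis, percent), for IgM, IgG2 and IgA (x axis), with 1 point per spleen. IgM spans 26.6% to 56.4% and IgA 4.79% to 10.7%, with spleen 1 at the top of IgM and at the bottom of IgA.

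The position of the mismatches differed between these subsets. In clonotypes with 3 or more left, the stretch from 106 to 120 nucleotides before the junction, at the border of CDR2 and framework 3, held 27.2% ± 4.63 of mismatches (SD, n = 4), and the last 45 nucleotides held 22.5% ± 4.61. In join matches the last 45 nucleotides held 56.3% ± 5.56. CDR2 held 24.2% to 32.6% of mismatches in the clonotypes with 3 or more left and 4.41% to 17.6% in the join matches, while it made up 17.8% to 18.1% of the germline letters of the mutated clonotypes. The search for joins sorted the clonotypes on these letters, so the contrast of positions is a description without a test.

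**Figure D2:**
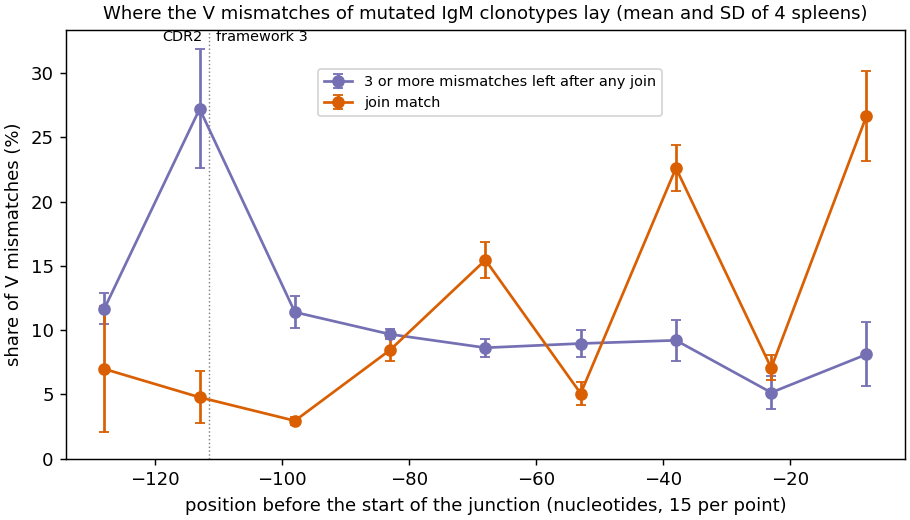
Share of V mismatches (y axis, percent, mean and SD of 4 spleens) in steps of 15 nucleotides before the start of the junction (x axis), for mutated IgM clonotypes with 3 or more mismatches left after any join and for join matches; the dotted line marks where CDR2 ends and framework 3 starts. The first curve peaks at the CDR2 border at 27.2%, and the second has its highest values in the 15 nucleotides before the junction (26.7%) and from 31 to 45 nucleotides before it (22.6%).

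Mismatches counted in mutated IgM lay in AID hotspots more often than those of IgM clonotypes above 0 and under 2%. They were counted in the most copied sequence of each clonotype, or in the first by alphabet where copies were equal. After such a tie, whether a mismatch was counted could depend on its letter. The clonotypes above 0 and under 2%, called lightly mutated here, had a median mutation of 0.347% in each spleen. Of them, 13.7%, 36.2%, 63.3% and 57.4% in spleens 1 to 4 had exactly 2 copies. How far ties shaped the shares below was not tested. Whether mismatches of lightly mutated clonotypes were mutations or errors of amplification and sequencing was not tested either. The hotspot searched was the C of AAC, AGC, TAC or TGC and, for the other strand, the G of GTT, GCT, GTA or GCA, in the germline letters. It held 21.4%, 28.8%, 30.9% and 32.1% of mismatches in mutated clonotypes, against 13.0%, 21.4%, 13.6% and 15.6% in the lightly mutated ones, and 14.4% to 14.9% of the germline letters of the mutated clonotypes' V genes were such bases. The difference of 12.4 percentage points ± 5.22 (SD, n = 4) was positive in all 4 spleens, and the exact two-sided sign-flip permutation test gave the smallest p that 4 pairs allow, 2 of 16 sign patterns. The number of these same mismatches set the classes, and the tie rule entered the count, so this p is not support for the difference. The difference was 7.46 points with mutation from 4%, positive in 4 of 4 spleens. It was positive in 3 of 4 among clonotypes held by both technical libraries, at 7.69 points, and among those of 5 or more copies, at 2.87 points. Clonotypes with 3 or more left after any join had 33.7% ± 5.82 of mismatches in the hotspot, and join matches had 17.0% to 18.8%. Mismatches fell on C or G in 50.5% ± 2.85 of cases in mutated clonotypes and in 36.0% ± 5.01 in the lightly mutated ones, higher in each spleen. Transitions were 57.4% ± 4.40 against 79.3% ± 4.20, lower in each spleen. Within CDR2, a loop that touches antigen, 79.5% ± 2.43 of mismatches changed the amino acid in mutated clonotypes, against 62.0% ± 5.49 in the lightly mutated ones. In framework 3, which holds the fold, the shares were 62.4% ± 1.60 and 68.7% ± 1.19. The share of mismatches within CDR2 was lower in all mutated clonotypes (22.5% ± 5.70 against 26.9% ± 2.86), in 4 of 4 spleens. It was higher in those with 3 or more left (29.2% ± 3.68 against the same 26.9%), also in 4 of 4. The join search removed join matches, whose mismatches lay mostly near the junction, and was not applied to the lightly mutated clonotypes. The second difference is therefore a description without a test.

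Copies that had no part in the classification gave the same order, in a comparison partly fixed in advance. A clonotype has 1 junction, so V mismatches inside the junction repeat in all its copies by definition. Of the mutated clonotypes, 950 had fewer than 3 mismatches before the junction. When the class was set in technical library 1, 84.2%, 75.8%, 78.2% and 73.5% of the mutated clonotypes seen again in library 2 were at 2% or more there, against 1.98%, 1.21%, 0.936% and 0.322% of the unmutated ones. An exact 0 was less stable: 53.5% to 62.1% of unmutated clonotypes were again at 0 in library 2. In spleens 1 to 4, 28, 620, 82 and 104 mutated clonotypes also had switched copies, whose mean mutation was 4.78%, 4.22%, 3.63% and 3.54%. The switched copies of unmutated IgM clonotypes averaged 0.763%, 0.556%, 0.545% and 0.598%. IgD copies accompanied 1, 47, 5 and 9 mutated clonotypes and averaged 1.39%, 3.02%, 2.48% and 3.76% mutation, against 0.939%, 0.637%, 0.753% and 0.698% in the unmutated class.

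Mutated IgM clonotypes shared IgA copies far more often than unmutated ones. IgA, the class secreted at mucosal surfaces, was found in the same clonotype for 5.30%, 19.2%, 9.60% and 9.76% of mutated clonotypes of spleens 1 to 4, against 0.382%, 1.83%, 0.268% and 0.437% of unmutated clonotypes. The 2 classes did not overlap, and the difference was 10.2 percentage points ± 5.20 (SD, n = 4, higher in 4 of 4 spleens, the smallest possible exact sign-flip p, 0.25 after Benjamini-Hochberg adjustment over 4 isotypes). IgG accompanied 1.10%, 8.71%, 3.35% and 3.45% of mutated clonotypes and 0.349%, 1.87%, 0.223% and 0.281% of unmutated ones, again higher in each spleen (the smallest possible exact p, 0.25 adjusted). IgD, which naive cells make beside IgM from the same primary transcript, was found in 0.963% ± 0.657 of mutated and 0.899% ± 0.264 of unmutated clonotypes, higher in 2 spleens and lower in 2 (exact p = 0.750). IgE, the class of allergic reactions, was found in 0.221% of mutated clonotypes in spleen 1, the share that 1 clonotype makes there, and none in the other spleens. In unmutated clonotypes the share was 0 to 0.0166%.

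A clonotype with more copies has more chances to show another isotype. Among clonotypes of exactly 2 IgM copies, IgA was found in 3.07% ± 3.02 of the mutated and 0.462% ± 0.334 of the unmutated, higher in 4 of 4 spleens (SD, n = 4). Where IgM made up at least 50% of the clonotype's copies, the shares were 4.50% ± 2.81 and 0.509% ± 0.469, also higher in each spleen. When a mutated clonotype held IgA, IgM was the minority: its median share of the copies was 44.6%, 40.0%, 38.1% and 40.0%. The same median was 71.4%, 57.1%, 60.0% and 61.7% for the unmutated clonotypes that held IgA. IgA copies were concentrated in the clonotypes with 3 or more mismatches left after any join, at 14.8%, 36.1%, 18.6% and 17.4%, while join matches held them in 0%, 3.36%, 0% and 1.16%. The join matches had fewer copies, 2.23 to 3.85 on average, than those with 3 or more left, 8.70 to 51.2 on average. By steps of mutation over all kept clonotypes, IgA was present in 0.730% at 0, in 2.78% above 0 and under 1%, in 5.23% from 1% to under 2%, in 8.35% from 2% to under 4% and in 17.7% at 4% or more, as means of 4 spleens. Among clonotypes of exactly 2 copies the same steps gave 0.462%, 0.973%, 3.10%, 2.21% and 5.07%, which did not rise at each step. Over all kept clonotypes, IgG reached 4.17% from 2% to under 4% and was 3.91% at 4% or more.

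**Figure D3:**
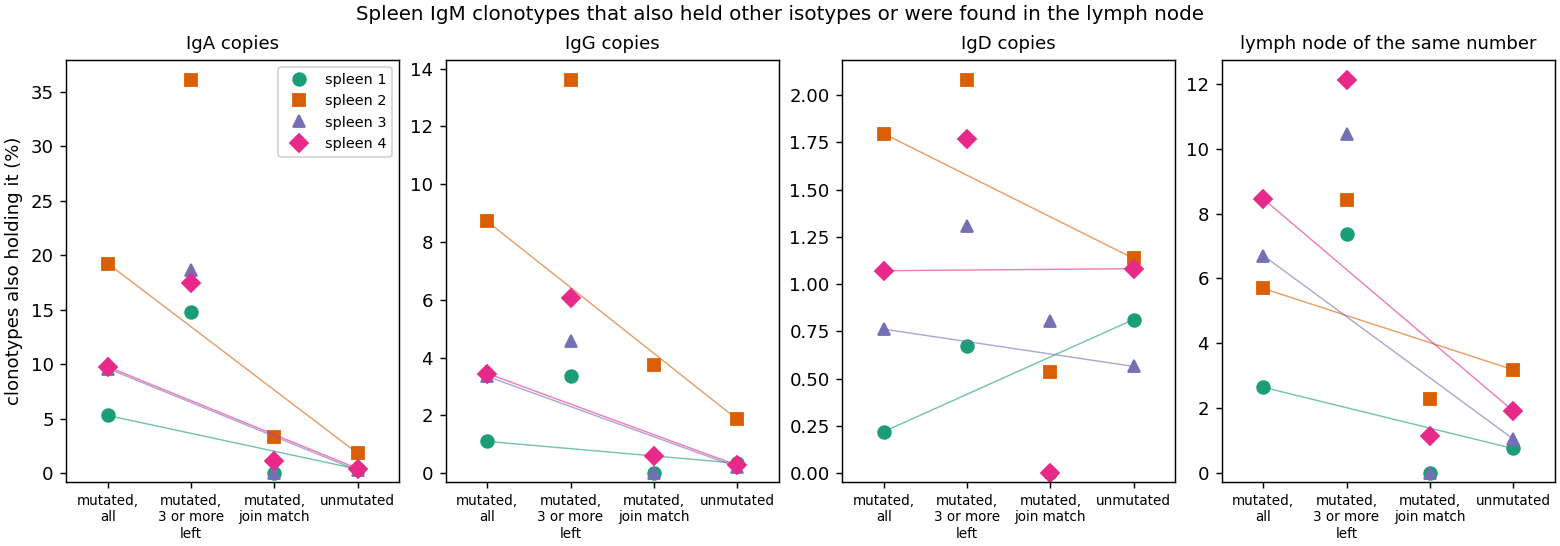
Share of spleen IgM clonotypes (y axis, percent; each panel has its own scale) that also held IgA, IgG or IgD copies or were found, in any isotype, in the lymph node of the same number, for all mutated clonotypes, the mutated subsets with 3 or more mismatches left after any join and with a join match, and the unmutated clonotypes (x axis); points are the 4 spleens and lines join the 2 classes. For IgA the mutated points lie between 5.30% and 19.2% and the unmutated ones between 0.268% and 1.83%.

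Mutated IgM clonotypes were also found more often in the lymph node of the same replicate number, another lymphoid tissue. A match there, in another spleen or in the skin could be of any isotype. Whether the matching copies were IgM was not tested. The shares were 2.65%, 5.69%, 6.71% and 8.45% of mutated clonotypes, against 0.763%, 3.19%, 1.06% and 1.93% of unmutated ones (difference 4.14 points ± 2.29, SD, n = 4, higher in 4 of 4, the smallest possible exact p, 0.25 adjusted over 2 comparisons). With exactly 2 IgM copies the shares were 1.72% ± 1.48 and 1.36% ± 0.83, higher in 3 of 4 spleens. Clonotypes with 3 or more left after any join were found there in 7.38%, 8.41%, 10.5% and 12.1% of cases, and join matches in 0%, 2.28%, 0% and 1.16%. Whether a shared number means 1 animal is not stated in the labels. Another spleen held 3.94% ± 1.28 of mutated and 3.83% ± 0.332 of unmutated clonotypes, higher in 2 spleens and lower in 2 (exact p = 0.750), where the junction had to be identical but the mutation did not. In the skin of the same number, 1, 5, 1 and 5 mutated clonotypes were found (0.152% to 0.595%), against 1, 1, 1 and 2 unmutated ones (0.00571% to 0.0166%).

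By V gene family, mutated IgM held more IGHV1 and less IGHV5, IGHV10 and IGHV3 in each of the 4 spleens. IGHV7 was also lower in each, but its direction turned under other settings. IGHV1, the largest mouse V family, made up 79.7%, 70.2%, 66.8% and 72.4% of mutated clonotypes, against 66.1%, 47.1%, 60.1% and 60.0% of unmutated ones, a difference of 13.9 points ± 6.84 (SD, n = 4). These shares include 2 genes almost absent from the unmutated class. IGHV1-62-3 made up 5.08%, 1.64%, 1.98% and 2.86% of mutated clonotypes. IGHV1-87 made up 1.55%, 0.115%, 1.68% and 1.19%, with 0 unmutated clonotypes. Of its 31 mutated clonotypes, 24 had the same set of mismatches. Whether its reference letters fit these mice was not tested. IGHV5, near the J genes, made up 1.99%, 6.80%, 1.83% and 2.62% of mutated clonotypes and 6.76%, 10.3%, 8.38% and 9.20% of unmutated ones. IGHV10 made up 0%, 0.153%, 0.305% and 0.595% of mutated clonotypes and 0.398%, 5.14%, 1.97% and 2.01% of unmutated ones. Its difference of -2.12 points was -1.16 without spleen 2, where the unmutated share was highest. IGHV3 made up 1.32%, 0.650%, 1.52% and 1.67% of mutated and 1.99%, 4.58%, 2.89% and 2.63% of unmutated clonotypes. Its difference of -1.73 points was -1.0 without spleen 2, and -0.68 among clonotypes of 5 or more copies, where 2 spleens were higher and 2 lower. IGHV7 made up 0.883%, 2.87%, 2.29% and 1.43% of mutated and 0.896%, 4.05%, 2.44% and 2.22% of unmutated clonotypes. Its difference of -0.536 points was 0.276 with mutation from 4%, higher in 3 of 4 spleens, and 0.311 in both technical libraries, higher in 1 of 4. Each of these 5 had the smallest possible exact sign-flip p, 0.25 after adjustment over 10 families. IGHV14 averaged 3.96% ± 2.07 in mutated and 5.92% ± 2.65 in unmutated clonotypes and was lower in 3 of 4, as were IGHV2, IGHV8 and IGHV9, while IGHV6 was higher in 3 of 4. Among clonotypes with 3 or more left after any join, IGHV1 made up 67.8%, 72.1%, 60.5% and 70.5%, so the margin over the unmutated class was small in spleens 1 and 3, IGHV5 and IGHV10 were again lower in 4 of 4, and IGHV3 and IGHV7 in 3 of 4. Counted as lineages of such clonotypes, IGHV3 was higher in 2 spleens and lower in 2. Among clonotypes of 5 or more copies, IGHV1 was 4.63 points higher in mutated than in unmutated IgM, in 3 of 4 spleens.

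**Figure D4:**
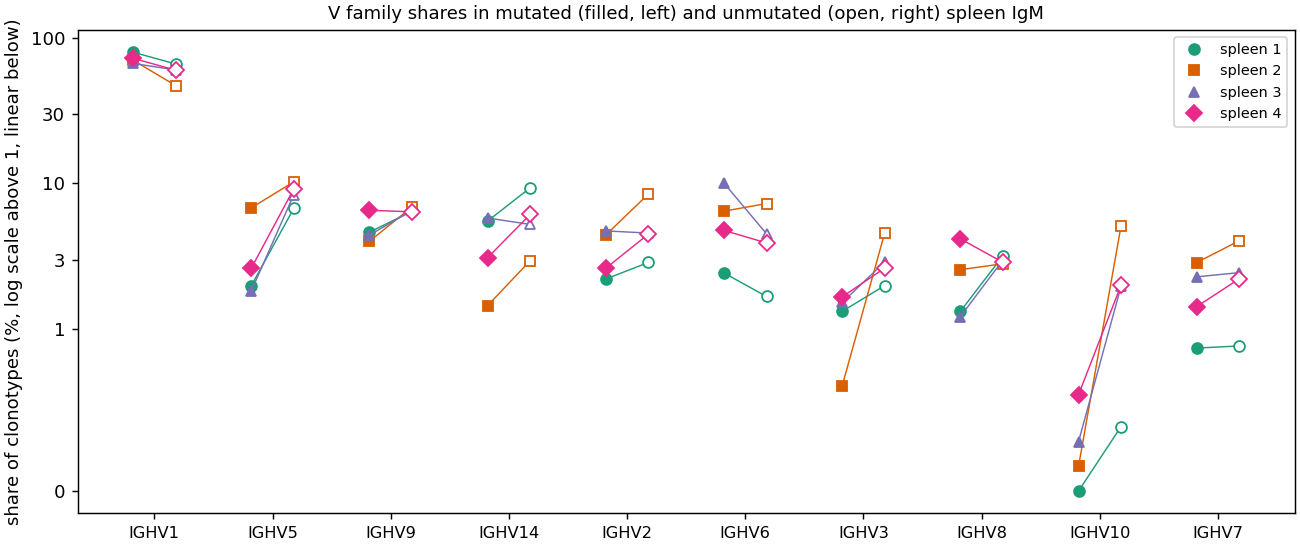
Share of clonotypes (y axis, percent, logarithmic above 1 and linear below) in 10 V families (x axis) for mutated IgM (filled, left) and unmutated IgM (open, right) in each of the 4 spleens. IGHV1 slopes down from mutated to unmutated in every spleen, and IGHV5, IGHV10, IGHV3 and IGHV7 slope up.

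Single V genes were tested on the number of clonotypes per gene with edgeR's quasi-likelihood test and the spleen as a block. Of 61 V genes tested, 4 rose in mutated IgM (6.56%) and 5 fell (8.2%), and all 9 moved the same way in 4 of 4 spleens; among all tested genes, 11.5% were higher and 31.1% lower in 4 of 4. IGHV1-53 (chromosome 12, 115158445 to 115158835) made up 7.51%, 7.72%, 5.18% and 7.14% of mutated clonotypes and 3.88%, 3.17%, 3.30% and 3.58% of unmutated ones. Its log2 fold change was 1.25 (SE 0.27, edgeR adjusted p = 0.0228). IGHV1-55 (115208137 to 115208527) made up 8.17%, 6.27%, 5.34% and 8.21% against 5.06%, 2.41%, 3.75% and 3.35%, with a log2 fold change of 1.25 (SE 0.29, edgeR adjusted p = 0.0238). Join matches were 26.4% of the mutated clonotypes of IGHV1-53 and 21.3% of those of IGHV1-55.

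IGHV6-6 made up 0.442%, 4.55%, 1.98% and 1.07% of mutated and 0.266%, 1.96%, 1.08% and 0.744% of unmutated clonotypes (log2 fold change 1.19, SE 0.34, edgeR adjusted p = 0.0454). Of its 143 mutated clonotypes 86 were join matches, and among clonotypes with 3 or more left its log2 fold change was -0.50 (SE 0.85, edgeR adjusted p = 0.732). IGHV1-62-3 (115460999 to 115461431) had the highest fitted log2 fold change, 6.66 (SE 0.48, edgeR adjusted p = 1.28e-05). It had 23, 43, 13 and 24 mutated and 1, 6, 6 and 4 unmutated clonotypes, and 52 of its 103 mutated clonotypes were join matches. The low-count filter kept IGHV1-62-3 through the mutated class, where it is common, so its p is not support for the rise. Only 9.94% of its kept clonotypes were without mismatch, and whether its reference letters fit these mice was not tested.

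The 5 genes that fell belong to IGHV5 and IGHV10. IGHV5-9-1 (113736113 to 113736406) had 0, 4, 0 and 0 mutated clonotypes and 32, 196, 151 and 193 unmutated ones (fitted log2 fold change -3.51, SE 0.71, edgeR adjusted p = 0.0228). IGHV10-1 had 0, 2, 2 and 3 mutated clonotypes and 18, 637, 224 and 269 unmutated ones (-3.19, SE 0.73, edgeR adjusted p = 0.0238). The low-count filter kept IGHV5-9-1 and IGHV10-1 through the unmutated class, where they are common, so their p-values are not support for the fall. IGHV10-3 had a log2 fold change of -2.91, IGHV5-17 of -1.73 and IGHV5-4 of -1.45, with edgeR adjusted p-values of 0.0419, 0.0454 and 0.0419. Among clonotypes with 3 or more left after any join, only IGHV1-62-3 passed. The log2 fold changes there were -3.31 for IGHV10-1, -2.92 for IGHV5-9-1, -1.82 for IGHV5-4, -1.63 for IGHV5-17, -2.22 for IGHV10-3, 1.18 for IGHV1-53 and 0.73 for IGHV1-55, with wider errors (SE 0.45 to 1.18). The edgeR adjusted p was 0.0530 for IGHV10-1, 0.0881 for each of IGHV5-9-1, IGHV5-17, IGHV5-4 and IGHV1-53, 0.221 for IGHV10-3 and 0.301 for IGHV1-55. Without spleen 2 the calls were 2, without spleen 3 there was 1, and without spleen 4 there were 3. IGHV11 and IGHV12, genes of B-1a cells that make natural IgM, were too rare for the test: IGHV11-2 had 2 mutated and 81 unmutated clonotypes over the 4 spleens, IGHV11-1 had 0 and 2, and IGHV12-3 had 8, all in spleen 2, and 54. Of the IGHV14 genes tested, IGHV14-4 had a log2 fold change of -1.08 (edgeR adjusted p = 0.122), IGHV14-3 of -0.52 and IGHV14-2 of 0.32, and none passed.

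**Figure D5:**
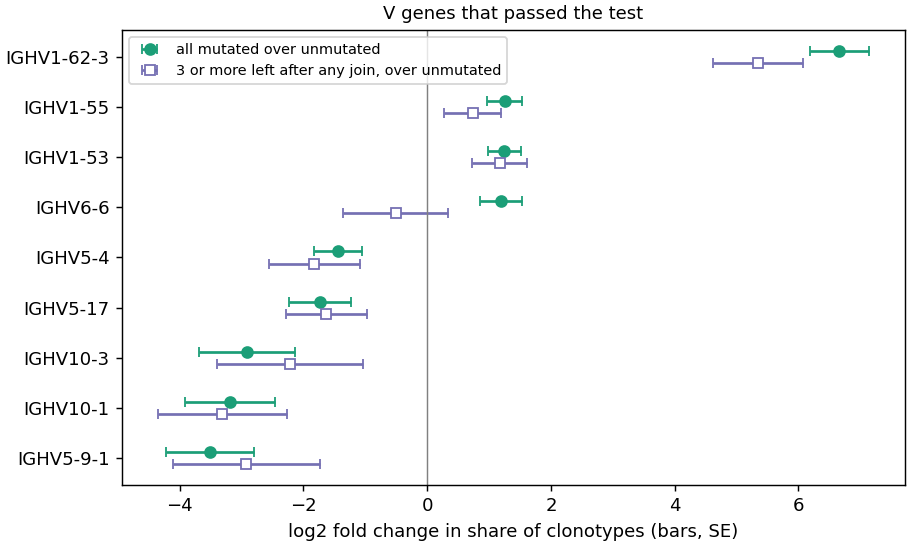
Log2 fold change in the share of clonotypes (x axis, bars are SE) of the 9 V genes that passed the edgeR test (y axis), for all mutated over unmutated IgM (filled) and for mutated clonotypes with 3 or more mismatches left after any join over unmutated IgM (open). The open point of IGHV6-6 lies at -0.50 and its filled point at 1.19, while the other 8 genes keep their side of 0.

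J gene shares did not move the same way in every spleen. IGHJ2 made up 34.7%, 41.7%, 37.7% and 43.2% of mutated and 35.6%, 34.6%, 35.0% and 35.7% of unmutated clonotypes, higher in 3 of 4 spleens (exact p = 0.25, 0.5 adjusted over 4 J genes). IGHJ4, the J gene nearest the constant region, made up 31.1%, 30.1%, 31.2% and 25.0% of mutated and 30.9%, 34.9%, 33.3% and 32.0% of unmutated clonotypes, lower in 3 of 4 (exact p = 0.25, 0.5 adjusted). IGHJ4 was lower in 4 of 4 with mutation from 1%, with 5 or more copies, with 3 or more mismatches before the junction and with IgM at 50% or more of copies, with differences of -2.48, -3.16, -3.80 and -3.46 points. IGHJ1 averaged 20.5% ± 1.67 and 20.6% ± 0.166, and IGHJ3 10.8% ± 2.63 and 11.4% ± 1.18. CDR3 length, the span between the conserved cysteine and tryptophan, averaged 11.7 ± 0.384 amino acids in mutated and 11.8 ± 0.226 in unmutated clonotypes, higher in 2 spleens and lower in 2 (exact p = 0.875). Weighted by copies, mutated CDR3s were 0.772 amino acids longer, in 3 of 4 spleens.

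CDR3 composition differed by small amounts in the same direction in every spleen for several amino acids. Tyrosine, the main contact residue of CDR3, made up 20.4% ± 0.259 of mutated and 21.2% ± 0.124 of unmutated CDR3 residues, lower in 4 of 4. Alanine (11.7% ± 0.330 against 12.5% ± 0.0930), arginine, methionine, histidine and glutamine were also lower in 4 of 4. Phenylalanine (5.70% ± 0.191 against 5.11% ± 0.0972), glycine (9.33% ± 0.312 against 8.75% ± 0.0912), isoleucine and cysteine were higher in 4 of 4. Each had the smallest possible exact p, 0.25 after adjustment over 22 measures. Among clonotypes of exactly 2 copies, tyrosine (21.1% ± 0.416 against 21.1% ± 0.398) and alanine (12.7% ± 0.714 against 12.5% ± 0.170) were higher in 3 of 4 instead, isoleucine was higher in 2 of 4, and phenylalanine was higher in 3 of 4. In clonotypes with 3 or more left after any join, the share of tyrosine was 19.4% ± 0.636, of alanine 10.9% ± 0.0283 and of phenylalanine 6.48% ± 0.215, each further from the unmutated value. Net charge averaged -0.51 ± 0.08 in mutated and -0.42 ± 0.03 in unmutated CDR3s, lower in 3 of 4 (exact p = 0.25). The first residues of the CDR3 are encoded by the V segment, and mismatches there also count in the mutation that set the classes. The unmutated class allows no such mismatch, so the comparisons of CDR3 residues, alanine and arginine included, are partly fixed by the rule. Their p-values are therefore not support, and the differences are descriptions.

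The 2 largest mutated clonotypes of each spleen, among those that both technical libraries held, had mutation from 2.45% in spleen 1 to 14.6% in spleen 2 and were found in 1 spleen each. In spleen 2 the group related to the IGHV1-75 clonotypes above comprised 56 mutated clonotypes with 85% or more identical junction letters, and no lightly mutated or unmutated relatives of 2 or more copies. They held 27001 IgM copies, 38.7% of the mutated IgM copies of that spleen, with mutation from 3.95% to 18.1%. Of the 56, 55 also had IgA, with 16674 IgA copies in all, and none had IgD. The largest, of 7042 IgM copies and junction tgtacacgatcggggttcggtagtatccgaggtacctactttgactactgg, was the 1 without IgA. The third, of 4641 IgM copies and junction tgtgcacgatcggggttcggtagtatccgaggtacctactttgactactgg, had 10003 IgA copies. The second had 5240 IgM and 111 IgA copies.

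The largest mutated clonotype of spleen 3 had 2083 IgM and 441 IgA copies and 7.04% mutation, with IGHV1-64, IGHJ4 and junction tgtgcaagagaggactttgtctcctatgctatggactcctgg. That of spleen 4 had 2840 IgM and 31 IgA copies and 3.47% mutation, with IGHV1-55 and IGHJ2, and was the only one of the 8 largest found with over 5 lymph node copies (45). That of spleen 1 that both technical libraries held had 49 copies and 2.45% mutation, below the median of 3.47% of its class there. The V letters of those of spleens 3 and 4 are given, with capitals for differences from the germline.
IGHV1-64, spleen 3, 10 mismatches: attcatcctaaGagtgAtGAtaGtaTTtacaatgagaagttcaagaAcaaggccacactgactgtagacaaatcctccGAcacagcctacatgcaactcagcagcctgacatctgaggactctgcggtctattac
IGHV1-55, spleen 4, 5 mismatches: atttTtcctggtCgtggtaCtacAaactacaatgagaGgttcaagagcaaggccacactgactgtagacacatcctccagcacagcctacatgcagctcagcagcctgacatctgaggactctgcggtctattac
The next largest were IGHV14-3 with IGHJ4 in spleen 3, with 644 IgM and 1676 IgA copies at 5.55%, IGHV1-72 with IGHJ2 in spleen 4, with 700 IgM and 61 IgA copies at 3.47%, and IGHV2-5 with IGHJ1 in spleen 1, with 29 copies at 3.33%. All 8 kept 3 or more mismatches after any join, and 5 of them had IgA copies.

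The largest unmutated clonotypes that both technical libraries held carried no IgA. That of spleen 2 was IGHV7-1 with IGHJ1, of 14742 copies, and that of spleen 3 was IGHV11-2 with IGHJ1, of 1465 copies, the second with junction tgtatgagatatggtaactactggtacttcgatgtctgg, and both junctions were found in all 4 spleens. Those of spleen 4 (IGHV1-80 with IGHJ2, 810 copies) and spleen 1 (IGHV9-4 with IGHJ4, 225 copies) were found in 1 spleen each.

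A mutated clonotype seen in all 4 spleens, IGHV9-3 with IGHJ1 and junction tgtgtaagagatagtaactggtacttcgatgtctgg, was at 2.78%, 3.47%, 2.29% and 3.04% mutation with 3, 2, 131 and 35 copies. A close relative in its junction, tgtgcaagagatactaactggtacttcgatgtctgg, also IGHV9-3 with IGHJ1, had 444 copies at 3.07% in spleen 2 and was found in 3 spleens. The other 2 mutated clonotypes found in all 4 spleens, IGHV1-53 with IGHJ1 and IGHV1-53 with IGHJ2, were mutated in spleen 2 alone, as join matches of 2 copies.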

How the data were processed

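Per the labels' protocols, a commercial service made cDNA from bulk RNA, using isotype primers tagged by random identifiers of 10 nucleotides. V gene primers then copied heavy chains from framework 2 into the constant region, which were amplified and sequenced. The deposited tables give a count per distinct sequence, called copies; the sources used here do not say whether these are identifiers or reads. The deposited tables also give V mismatches and aligned V length, a measurement other than a count (median 144 nucleotides in every library). The build was mm10, per the submitters' processing notes; the program that assigned V and J genes was not given in the sources used here. Spleen libraries held 79235 to 683759 copies each.

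Values per spleen were compared with exact two-sided sign-flip permutation tests over 16 sign patterns, whose smallest p is 2 of 16, with Benjamini-Hochberg adjustment within a family of measures. V genes were tested on clonotypes per gene with edgeR 4.0.16 (R 4.3.3) quasi-likelihood tests, with TMM scaling, edgeR's filter for low counts and the spleen as a block, because both classes came from the same spleen. DESeq2 1.42.0 was an alternative. Other steps used scipy 1.17.1 and pandas 2.3.3 in Python 3.11.15, with numpy 2.4.6. The edgeR step and the join search were run on simulated data, and the outcome is not reported here. The simulated V segments were drawn evenly over V genes, not by their shares in these data. How often point mutations alone would give a join match among these clonotypes was not tested. The labels call the 4 replicates biological without saying that each is 1 animal, and if they are not, p-values measure only the spread between these samples.

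V genes were named when the edgeR adjusted p was under 0.05 and all 4 spleens moved the same way, and IGHV11, IGHV12 and IGHV14 genes in any case. Clonotypes named were the 2 largest mutated and the largest unmutated of each spleen in both technical libraries, and up to 4 mutated ones found in most spleens. The classes, lists and tests were chosen with earlier results of these data known. The join search and 5 alternatives were chosen after seeing the data: 3 or more mismatches before the junction, 3 or more left after any join, lineages of those clonotypes, an IgM share of 50% or more, and the class from the other technical library. V gene positions are from RefSeq (GRCm38.p6), where 99 of 113 V genes matched. The positive control was not used. V letters are printed for 6 clonotypes and are not reported here for the others.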

Additional observations from a re-analysis of the deposited data

Results flagged for a closer look

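Among 101 groups of 4 spleens examined, 9 held a sample far from the other 3, where chance gives about 1 in 20. Spleen 2, the deepest, was the far sample in 6 of them. It had 6.80% IGHV5 in mutated IgM, a CDR3 length of 11.4 amino acids and 8.97% arginine in unmutated IgM, 1.83% of unmutated clonotypes with IgA and 1.87% with IgG, and 73.1% transitions among mismatches of IgM above 0 and under 2%. Spleen 4 had 8.87% glycine and 2.22% methionine in mutated CDR3s. Spleen 1 had 0.221% of mutated clonotypes with IgE, the share that 1 clonotype makes there.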

How the results depend on the processing

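Leaving out each spleen in turn gave differences, mutated minus unmutated unless stated, of 10.9 to 16.4 points for IGHV1, -4.63 to -2.22 for IGHJ4, -0.216 to 0.0596 amino acids for CDR3 length, -0.137 to -0.0594 for net charge, 7.86 to 12.0 for IgA, 3.34 to 4.89 for the lymph node and 10.8 to 14.1 for hotspot mismatches against lightly mutated IgM, 1 to 6 called V genes, and 75.8% to 79.4% of clonotypes mutated again in the other technical library. With mutation from 4%, IGHV1 differed by 21.2, net charge by -0.195 and IgA by 17.0. With 5 or more copies, IGHV1 differed by 4.63, CDR3 length by 0.538, IgA by 28.2, the lymph node by 12.3 and hotspots by 2.87, and 0 V genes were called by edgeR, with 0 at an unadjusted p under 0.05. Weighted by copies, IGHJ4 differed by 0.370 and length by 0.772. With exactly 2 copies, IgA differed by 2.60 and the lymph node by 0.359. In both technical libraries, the lymph node differed by 8.07 and 2 V genes were called. With 3 or more left after any join, IgA differed by 21.0, the lymph node by 7.86 and hotspots by 17.8, and with lineages as well by 17.2, 7.83 and 18.1; each called 1 V gene. With IgM at 50% or more of copies, IgA differed by 3.99 and 4 V genes were called. With 3 or more mismatches before the junction 5 V genes were called, and without the low-count filter 17. Without the replicate block 6 V genes were called against 9 with it, and with DESeq2 12. IGHV1-62-3 passed in all 15 other settings that tested it, while IGHV1-53 and IGHV1-55 lost the call in 10 and 11 of 18. IGHV6-6 lost it when any single spleen was left out and reversed to a log2 fold change of -0.74 with mutation from 4%, -0.50 with 3 or more left and -0.33 with lineages as well. The cause of these shifts was not tested. Among single families, leaving out each spleen gave -2.69 to -1.16 points for IGHV10, -2.09 to -1.0 for IGHV3, -5.97 to -4.93 for IGHV5 and -0.710 to -0.319 for IGHV7. IGHV3 differed by -0.185 with 3 or more left as lineages. The other 104 alternative values of these summary results lay within 1 SD, or within 1.5 times for counts. Copies limit what can be seen: most kept clonotypes had few, and the exact sign-flip test on 4 spleens cannot pass 0.05.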
